A study of Mus musculus with 4 samples.

Results

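Quiescent capillary endothelial cells (ECs) of the mouse cerebrum were taken as the ECs that held capillary transcripts and no transcript of the angiogenic genes that set apart a population in *Angpt2*-KO brains. They were 5905 of 14924 ECs and of 17999 cells in all (39.6% and 32.8%). An EC had 3 or more of *Cldn5*, *Flt1*, *Pecam1*, *Cdh5*, *Kdr* and *Tie1* detected, with fewer than 3 UMIs (unique molecular identifiers, which count RNA molecules) summed over *Pdgfrb*, *Vtn*, *Acta2* and *C1qb*, genes of mural cells and microglia. A member then had 2 or more of *Slc16a1*, *Ivns1abp*, *Mfsd2a*, *Tfrc* and *Car4* detected and none of *Apln*, *Esm1*, *Angpt2*, *Itga4*, *Nog* and *Fgfbp1*. It also had at most 1 of the arterial genes *Gkn3*, *Bmx*, *Mgp*, *Fbln2* and *Stmn2*, at most 1 of the venous genes *Adgrg6*, *Ch25h*, *Lrg1*, *Ackr1* and *Nr2f2*, and at most 2 of the arteriole-side genes *Unc5b*, *Sema3g*, *Efnb2*, *Gja1*, *Alpl* and *St8sia6*.

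The cells came from 4 mice of 3 months, 2 *Angpt2*-KO (KO1 and KO2) and 2 *Angpt2*-WT (WT1 and WT2), with WT1 and KO1 female and WT2 and KO2 male. *Angpt2* codes for angiopoietin 2. The KO mice lack exon 4 of *Angpt2* in all cells, from a floxed allele crossed to Pgk-Cre and backcrossed to C57BL6/J, and the WT mice were their littermates. Microvascular fragments enriched from the cerebrum on PECAM1-coated beads gave 1 droplet-based 3′ RNA library per mouse, so genotype was compared over 2 mice against 2 with no further culture or treatment. Because the knockout acts in every cell from early life, an effect in capillary ECs cannot be told apart from one that arose in another cell or during development.

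Brain capillaries carry the blood-brain barrier. Their ECs are joined by tight junctions, take up nutrients through carriers and receptors, pump foreign compounds back into blood, and are kept in this state by Wnt/beta-catenin signals from neural tissue and by pericytes. Angiopoietin 2 is a ligand of the receptor TEK (TIE2) that is made by sprouting and activated endothelium, and TEK activity restrains the transcription factor FOXO1 in resting vessels.

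The members numbered 1503 (WT1), 2302 (WT2), 516 (KO1) and 1584 (KO2) cells, and they held 9036819, 12610477, 3228111 and 6453637 UMIs in that order. The median member of WT1 held 4659 UMIs, that of WT2 4154.5, that of KO1 5069 and that of KO2 3337, so KO1 had the fewest but the deepest cells. Across the libraries 33 cell barcodes occurred more than once, of which 2 were of members.

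Members made up 44.9% of ECs in WT1 (95% exact binomial interval 43.2 to 46.6), 46.2% in WT2 (44.8 to 47.5), 22.8% in KO1 (21.1 to 24.6) and 36.6% in KO2 (35.2 to 38.1). Both KO shares lay below both WT shares. The means were 45.5% ± 0.909 (SD, n = 2) in WT and 29.7% ± 9.76 (SD, n = 2) in KO. By the rule, ECs with any of the 6 angiogenic genes could not be members, so the share moves with theirs and is given as a description, with no test. The EC group with an angiogenic gene held 15.1% and 13.5% of ECs in WT1 and WT2 and 57.4% and 37.0% in KO1 and KO2. This group left out some ECs with such a gene, since ECs with none were 80.8% (WT1), 82.5% (WT2), 35.7% (KO1) and 59.0% (KO2). When cells were thinned to 2000 UMIs each and shallower cells were left out, the ECs numbered 3162 (WT1), 4413 (WT2), 2152 (KO1) and 3808 (KO2) in place of 3350, 4988, 2261 and 4325. The shares were then 55.8%, 52.3%, 42.0% and 44.9% in that order and the gap between the means was 10.6 in place of 15.8 percentage points, with both the depth and the set of cells changed.

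**Figure D1:**
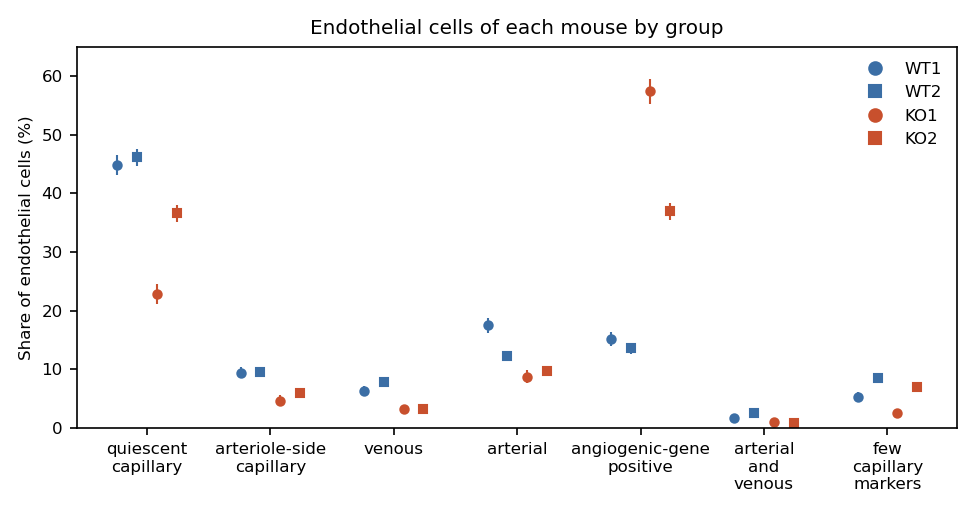
Share of ECs (%, vertical axis) in each EC group for the 4 mice, with exact 95% binomial intervals that cover counting error only. Quiescent capillary ECs made up 44.9% and 46.2% of ECs in the WT mice and 22.8% and 36.6% in the KO mice, and ECs with an angiogenic gene moved the other way.

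The label was checked against markers that the rule did not use, in UMIs of a gene per 1000000 UMIs of the summed cells (CPM). *Slc7a5*, the large neutral amino acid carrier, stood at 857 (WT1), 774 (WT2), 776 (KO1) and 879 (KO2) CPM in members. In arterial ECs it stood at 408, 320, 483 and 374 CPM in the same order, below the members of every mouse. *Slc22a8*, an organic anion carrier, was at 474, 472, 478 and 443 CPM in members and at 193, 180, 250 and 184 CPM in arterial ECs. All 6 arterial markers outside the rule were lower in members than in the arterial ECs of the same mouse, by very different amounts. *Hey1*, a Notch target of arteries, was at 16.9, 14.1, 21.7 and 21.1 CPM in members against 142, 155, 152 and 178 CPM in arterial ECs. The most abundant of them, the transcription factor gene *Sox17*, differed less, at 227, 256, 216 and 186 CPM in members, 372, 406, 296 and 297 CPM in arterial ECs and 253, 263, 175 and 176 CPM in all ECs.

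Against venous ECs the markers also differed in degree. *Slc38a5*, a glutamine carrier, was at 254, 361, 292 and 317 CPM in members, 487, 689, 532 and 618 CPM in venous ECs and 34.5, 49.2, 65.9 and 41.5 CPM in arterial ECs. The coagulation protein gene *Vwf* was at 213, 216, 169 and 174 CPM in members and at 1035, 1030, 720 and 889 CPM in venous ECs. Members therefore held an intermediate level of *Slc38a5*. Other genes listed as capillary markers did not peak in members: *Spock2* was at 3176, 2967, 3159 and 3424 CPM in them, and at 3949, 3737, 4689 and 4764 CPM in arteriole-side capillary ECs. All of these are descriptions with no test, because the same counts formed the groups.

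**Figure D2:**
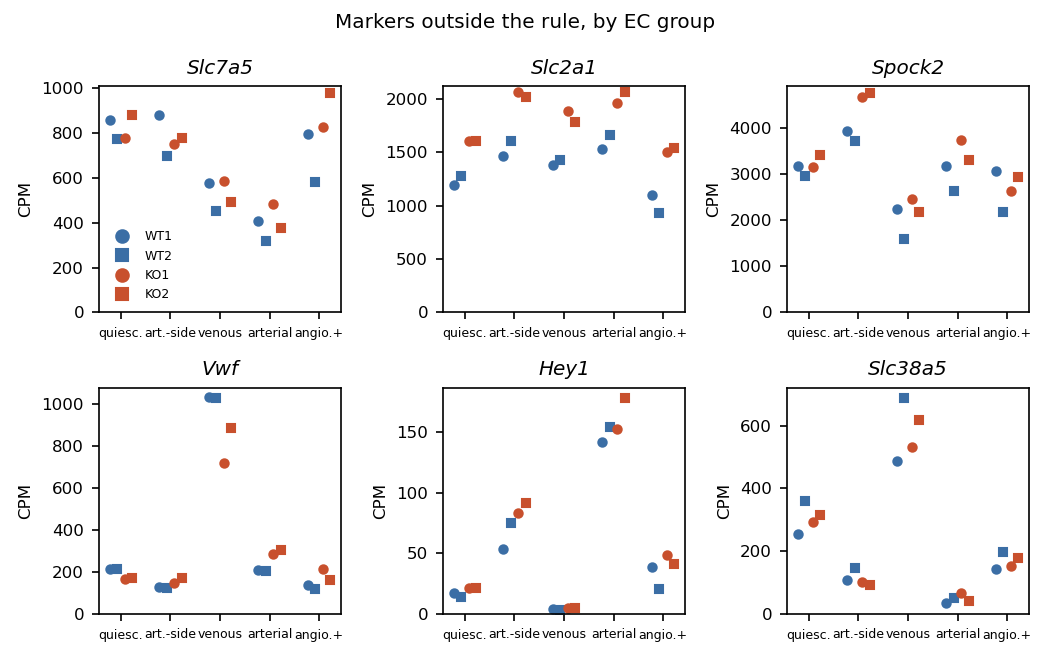
Level (CPM, linear axis from 0) of 6 genes outside the rule in 5 EC groups, 1 point per mouse. *Slc7a5* was lower in arterial ECs than in members of every mouse, *Vwf* and *Slc38a5* were highest in venous ECs, and *Hey1* was highest in arterial ECs.

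The 5 capillary genes of the rule are given as values only. *Car4*, a carbonic anhydrase of the capillary surface, was at 966, 1130, 1173 and 1015 CPM in WT1, WT2, KO1 and KO2, after scaling by the TMM method that removes differences in library composition. *Slc16a1*, which carries lactate and ketone bodies, was at 829, 600, 643 and 561 CPM. The transferrin receptor gene *Tfrc* was at 611, 508, 633 and 534 CPM. *Mfsd2a*, the carrier of omega-3 lipids that holds transcytosis low, was at 241, 187, 300 and 261 CPM. *Ivns1abp* was at 188, 136, 306 and 335 CPM. This gene marks no cell type by itself, since it had a UMI in 75.4%, 80.8%, 89.6% and 76.2% of cells of the microglia gate in the 4 mice, against 47.4%, 38.9%, 62.6% and 54.5% of members. *Mfsd2a* had a UMI in 62.3%, 54.6%, 70.9% and 54.5% of members and in 7.39%, 6.62%, 6.77% and 9.96% of the microglia gate.

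Cells just inside the rule, with 2 of the 5 capillary genes, numbered 246 (WT1), 497 (WT2), 67 (KO1) and 384 (KO2). Those just outside, which met every other clause but had 1 capillary gene, numbered 116, 301, 42 and 231 and were shallower, with medians of 2697.5, 2278, 2449.5 and 2143 UMIs against 3577.5, 3013, 3378 and 2477. *Spock2* was at 2549, 2400, 1667 and 2380 CPM just inside and at 1876, 2059, 1822 and 2087 CPM just outside, so in KO1 the order was turned.

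Transcripts of other cells were present and differed between mice, those of red blood cells and choroid plexus at high levels. The 5 erythroid genes summed to 2139 (WT1), 6715 (WT2), 14868 (KO1) and 6157 (KO2) CPM, led by *Hbb-bs*, which was at 8531 CPM in KO1, all after TMM scaling. None of the 5 was called by edgeR or DESeq2, all 5 had an unadjusted p under 0.05, and all 5 were called without WT2 or without KO2. *Ttr*, a choroid plexus transcript, was at 940, 3890, 105 and 1442 CPM, lower in KO within each pair of same-numbered mice. It was not called, and was called lower under 9 of 16 alternatives, the fit with the replicate number as a block and those without WT1 or without KO2 among them. Markers of microglia and pericytes were low. The 6 microglia markers summed to 59.8, 39.7, 52.8 and 75.9 CPM and the 6 pericyte markers to 40.4, 42.9, 63.2 and 51.0 CPM. *Plvap*, a gene of fenestrated endothelium, was at 14.4, 40.0, 105 and 29.1 CPM. Members with 2 or more *Plvap* UMIs numbered 7, 28, 9 and 15, and these 59 cells summed had 194 CPM of *Slco1a4*, a barrier carrier, against 2503 CPM in the other members. Members with over 1% haemoglobin UMIs numbered 15, 35, 16 and 20.

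Few cells held transcripts of dividing cells. Of members, 0 of 1503 (WT1), 0 of 2302 (WT2), 0 of 516 (KO1) and 1 of 1584 (KO2) had 2 or more of *Mki67*, *Top2a*, *Cdk1*, *Ccnb1* and *Birc5*. These counts of 0 allow shares of up to 0.200%, 0.130% and 0.581% of cells with such UMIs, which is no limit on dividing cells, since the 5 genes summed to 0.923 to 2.78 CPM in members. In other ECs the counts were 3 of 1847, 3 of 2686, 3 of 1745 and 4 of 2741.

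To ask what loss of *Angpt2* changed in capillary ECs outside the angiogenic population, the members' UMIs were summed per mouse and compared with edgeR's quasi-likelihood test and Benjamini-Hochberg adjustment over 11648 genes. Among called genes with a mean of at least 10 CPM, the largest rise was in the cell cycle gene *Ccnd1* and the largest fall in *Cyp2e1*, a gene of ethanol and drug metabolism. Of all genes tested, 159 (1.37%) were called at an adjusted p under 0.05, 107 (0.919%) higher and 52 (0.446%) lower in KO, and 1231 (10.6%) had an unadjusted p under 0.05. The median log2 fold change of all genes was -0.01. In 20.9% of all genes both KO mice lay above both WT mice and in 20.3% below. The 37 genes of the rule were not tested. Every level of members in the genotype comparison is a TMM-scaled CPM, and every log2 fold change is KO over WT with its SE and n = 2 mice a genotype.

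*Ccnd1* codes for cyclin D1, which drives entry into the cell cycle (GRCm38 chr7:144929931-144939925, minus strand). It was at 50.9 (WT1) and 52.5 (WT2) CPM and at 262 (KO1) and 275 (KO2) CPM. The KO mice stood apart from the WT mice by far more than mice of a genotype differed, with a log2 fold change of 2.38 ± 0.10 (edgeR adjusted p = 3.08e-07). *Ccnd2*, cyclin D2, was at 47.2 and 37.6 CPM in WT and 94.3 and 78.4 CPM in KO, a log2 fold change of 1.02 ± 0.14 (edgeR adjusted p = 0.00353). *Cdkn2c*, which codes for an inhibitor of the kinases that cyclins D activate, was at 17.9 and 23.8 CPM in WT and 9.16 and 10.8 CPM in KO, a log2 fold change of -1.04 ± 0.20 (edgeR adjusted p = 0.0239). These were the 3 called among 13 tested of 21 cell cycle genes, whose median log2 fold change was -0.11. *Ccnd1* and *Ccnd2* stayed called under all 16 alternatives run, and the call of *Cdkn2c* was lost under 6 of them, DESeq2, without KO1 and without WT2 among them. The 5 genes of dividing cells named above were too low to be tested. The DNA replication genes *Pcna*, *Mcm2*, *Mcm3*, *Mcm5* and *Tyms* were tested and not called, with log2 fold changes of -0.06, -0.19, -0.11, -0.54 and 0.09.

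*Meox1*, a homeobox transcription factor gene (chr11:101877510-101894374, minus strand), was at 14.5 and 14.0 CPM in WT and 57.4 and 55.6 CPM in KO. Its log2 fold change was 1.98 ± 0.13 (edgeR adjusted p = 1.42e-05). *Tmod2*, whose protein caps actin filaments, was at 5.54 and 3.66 CPM in WT and 18.9 and 16.8 CPM in KO. *F5*, coagulation factor V, was at 28.0 and 40.7 CPM in WT and 96.2 and 129 CPM in KO, a log2 fold change of 1.71 ± 0.18 (edgeR adjusted p = 0.000925). It was the only called gene of 10 tested in a list of 14 coagulation and fibrinolysis genes.

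The other genes among the 10 largest rises were *Bst1*, *Ifi203*, *Mndal*, *Ctdspl*, *Ccn2* and *Rnd1*, with log2 fold changes of 1.70, 1.64, 1.60, 1.54, 1.499 and 1.48. In each of them both KO mice exceeded both WT mice, as the rule for naming them required. Of the 10 largest rises, the study's supplement lists *Ccnd1*, *Meox1*, *Tmod2* and *Ccn2* among genes of transformed ECs in pericyte-deficient mice. It lists *Rnd1* among tip cell genes there, and does not list *F5*, *Bst1*, *Ifi203*, *Mndal* or *Ctdspl*. The part of missed angiogenic cells in these rises was not tested. *Ccn2*, connective tissue growth factor, was at 33.9 and 23.1 CPM in WT and 92.5 and 69.1 CPM in KO. *Rnd1*, whose protein loosens the actin cytoskeleton, was at 10.5 and 9.28 CPM in WT and 23.2 and 30.8 CPM in KO. *Ifi203* (chr1:173920407-173942672) and *Mndal* (chr1:173849126-173942491) overlap on the minus strand and belong to 1 interferon-inducible family, so their 2 values are not independent and their reads may be split uncertainly.

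*Cyp2e1* (chr7:140763739-140774987, plus strand) was at 25.04 (WT1) and 26.2 (WT2) CPM and at 1.53 (KO1) and 1.70 (KO2) CPM. It fell with a log2 fold change of -3.95 ± 0.23 (edgeR adjusted p = 7.21e-06). *Wnt5a*, a ligand of noncanonical Wnt signalling (chr14:28504750-28527448, plus strand), was at 77.8 and 77.6 CPM in WT and 28.7 and 32.6 CPM in KO, a log2 fold change of -1.33 ± 0.12 (edgeR adjusted p = 0.000411). *Adh1*, an alcohol dehydrogenase, was at 17.5 and 16.5 CPM in WT and 6.41 and 6.34 CPM in KO. Both WT mice were above both KO mice for each of these genes, as the rule for naming them required.

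*Mbp*, myelin basic protein, was at 19.4 and 21.8 CPM in WT and 2.44 and 4.79 CPM in KO, a log2 fold change of -2.39 ± 0.24 (edgeR adjusted p = 0.000851). The oligodendrocyte gene *Mobp* fell too, from 6.12 and 8.42 CPM to 0.916 and 1.55 CPM (edgeR adjusted p = 0.00786). Of the 4 oligodendrocyte markers 3 were tested and these 2 were called. *Mobp* was not called without WT2. *Mog* was at 0 in 3 mice. The 4 markers summed to 32.4, 35.7, 7.63 and 11.3 CPM in WT1, WT2, KO1 and KO2, and the part of oligodendrocyte RNA in the fall of *Mbp* was not tested.

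*Fam181b*, *Ankrd37*, *H2-Q7*, *Vstm2b* and *Cystm1* completed the 10 largest falls, with log2 fold changes of -1.47, -1.33, -1.22, -1.16 and -1.14. *H2-Q7*, a class I histocompatibility gene with close copies among which reads can be split, was at 69.2 and 45.5 CPM in WT and 30.8 and 19.9 CPM in KO. It was not called by DESeq2 or without KO2. *Vstm2b* was not called without KO2 either, nor, like *Bst1* and *Adh1*, when the same members were thinned to 2000 UMIs.

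**Figure D3:**
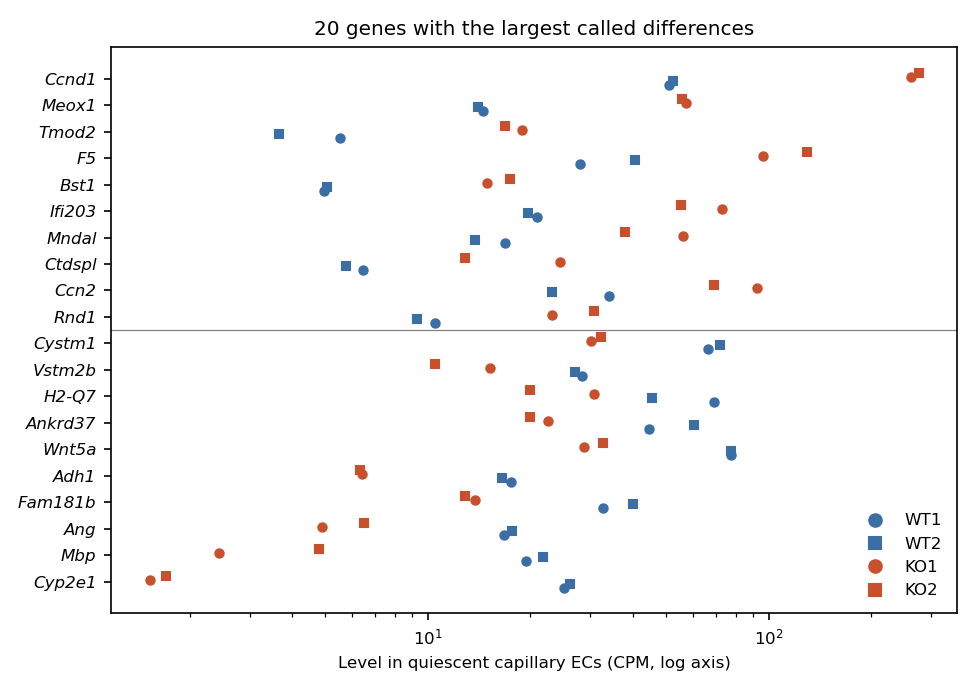
Level (TMM-scaled CPM, log axis) in quiescent capillary ECs of the 10 called genes with the largest rise (above the grey line) and the 10 with the largest fall (below it), 1 point per mouse. The KO and WT points do not overlap for any of the 20 genes, as the rule for naming them required, and *Ccnd1* rose from 50.9 and 52.5 to 262 and 275 CPM.

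*Ang*, the ribonuclease angiogenin, and its neighbour *Rnase4* fell together. *Ang* was at 16.7 and 17.7 CPM in WT and 4.88 and 6.49 CPM in KO, a log2 fold change of -1.55 ± 0.20 (edgeR adjusted p = 0.00267). *Rnase4*, named here for its shared promoter after its values were seen, was at 93.1 and 103 CPM in WT and 57.7 and 48.2 CPM in KO, a log2 fold change of -0.90 ± 0.12 (edgeR adjusted p = 0.00325). The genes overlap on the plus strand (*Ang* chr14:51091150-51102009, *Rnase4* chr14:51091077-51106151), so reads may be split uncertainly. RefSeq gives both genes the same promoter window in GRCm38.p6 (chr14:51090827-51091126, plus strand), shown because a pair of called genes shares it. *Rnase4* has another window as well (chr14:51095750-51096049, plus strand), in which the motif named next had 0 matches. The capitals mark a match to the motif GGGTGGG on the opposite strand, a sequence bound by Krüppel-like factors, which 20.6% of 11591 windows of the genes tested hold on either strand.
Ang and Rnase4: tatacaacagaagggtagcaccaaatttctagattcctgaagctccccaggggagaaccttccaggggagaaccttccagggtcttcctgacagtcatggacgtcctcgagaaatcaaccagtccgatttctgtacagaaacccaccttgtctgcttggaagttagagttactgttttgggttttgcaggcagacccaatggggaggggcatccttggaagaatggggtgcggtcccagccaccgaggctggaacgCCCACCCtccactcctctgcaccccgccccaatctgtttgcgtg

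*Nrp1*, *Tek* and *Foxo1* stand for the receptors and effectors of the angiopoietin and VEGF pathways that the study singles out. *Nrp1*, a VEGF co-receptor of sprouting ECs, was at 265 (WT1) and 215 (WT2) CPM and at 400 (KO1) and 398 (KO2) CPM. It rose with a log2 fold change of 0.73 ± 0.13 (edgeR adjusted p = 0.0194), and without KO1 or without KO2 it was not called. *Tek* was at 447 and 434 CPM in WT and 391 and 408 CPM in KO, a log2 fold change of -0.14 ± 0.12 (edgeR adjusted p = 0.765). *Foxo1* was at 140 and 125 CPM in WT and 123 and 134 CPM in KO, a log2 fold change of -0.04 ± 0.10 (edgeR adjusted p = 0.942). The levels of *Foxo1* overlapped between genotypes.

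Of the VEGF and angiopoietin list of 20 genes 18 were tested, with 1 called higher (*Nrp1*), 1 lower and a median log2 fold change of 0.12. The lower gene was *Adm*, adrenomedullin, a peptide of sprouting endothelium, at 24.9 and 20.3 CPM in WT and 11.3 and 12.7 CPM in KO (log2 fold change -0.89 ± 0.18, edgeR adjusted p = 0.0300). The call was lost under 6 of 16 alternatives, DESeq2 among them. Of this list DESeq2 called *Nrp1* and *Rgcc*. *Plxnd1* was called higher under 6 and *Rgcc* under 4 of 16 alternatives. In all ECs *Adm* went the other way, from 17.1 (WT1) and 16.3 (WT2) CPM to 83.3 (KO1) and 37.7 (KO2) CPM without scaling, where members had 23.9, 20.7, 11.5 and 12.7 CPM without scaling. The part of the clause on angiogenic genes in the fall of *Adm* in members was not tested. *Ptprb*, which codes for the phosphatase that acts on TEK and was the most abundant gene of the list, was at 2105 and 1889 CPM in WT and 2195 and 2173 CPM in KO (log2 fold change 0.13 ± 0.14). *Angpt2* itself was at 0 in members by the rule. In all ECs it was at 12.2 (WT1), 12.3 (WT2), 59.6 (KO1) and 39.3 (KO2) CPM without scaling, since 3′ counts need not come from the deleted exon and so check nothing about the genotype.

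Of 30 carriers and pumps of the blood-brain barrier tested, 0 were called in either direction by edgeR and 2 by DESeq2 (*Slc1a1* and *Slc2a1*), 5 had an unadjusted p under 0.05, and the median log2 fold change was 0.04. Beside the 1.37% called among all genes a list of this length gives no reading of a count of 0. The glutamate carrier gene *Slc1a1* was called under 4 of 16 alternatives, DESeq2 and without WT1 among them. *Slco1a4*, an organic anion carrier and among the most abundant, was at 2550 and 2337 CPM in WT and 2705 and 2564 CPM in KO (log2 fold change 0.11 ± 0.14). The glucose carrier gene *Slc2a1* was at 1245 and 1259 CPM in WT and 1580 and 1604 CPM in KO, a log2 fold change of 0.35 (edgeR adjusted p = 0.364). The largest shift among the carriers was in *Aqp1*, a water channel, which was near its floor with 0.808, 3.74, 6.72 and 3.25 CPM in WT1, WT2, KO1 and KO2.

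Junction genes (19 of 20 tested) had 0 calls by edgeR, 1 by DESeq2 (*Emcn*), 3 at an unadjusted p under 0.05 and a median of 0.07. *Emcn* was called higher under 5 of 16 alternatives and *Cdh13* under 2 of 15. Of 21 transcytosis genes 1 was called, *Ehd4*, a recycling protein of endosomes, which rose from 69.0 and 75.4 CPM to 120 and 105 CPM (log2 fold change 0.63 ± 0.11, edgeR adjusted p = 0.0150) and was not called without KO1. Of 24 Wnt/beta-catenin genes 23 were tested and *Reck*, which codes for a partner of the brain endothelial Wnt receptor complex, rose from 119 and 91.7 CPM to 161 and 157 CPM (log2 fold change 0.60 ± 0.12, edgeR adjusted p = 0.0399). *Reck* was not called without KO1 or without KO2. The median of the Wnt list was -0.05, and *Ctnnb1*, beta-catenin, was at 830 and 821 CPM in WT and 795 and 826 CPM in KO. Notch genes (12 of 14 tested) had 0 calls by edgeR or DESeq2, 3 at an unadjusted p under 0.05 and a median of 0.07. The receptor gene *Notch4* was called under 4 of 16 alternatives, without WT1 among them, with log2 fold changes of 0.37 to 0.60 over all 16.

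The basement membrane is the sheath around the capillary. Of 22 genes of basement membrane and collagen processing, integrins among them, all 22 were tested and 3 were called higher, 0 lower. Of these 22 genes 21 had a positive log2 fold change, and the median was 0.29 against -0.01 over all genes. *Lama4*, the endothelial laminin chain, rose from 71.3 and 68.3 CPM to 125 and 107 CPM (log2 fold change 0.72 ± 0.11, edgeR adjusted p = 0.00699). *Nid1*, nidogen, rose from 45.6 and 42.6 CPM to 76.6 and 65.1 CPM and *Hspg2*, perlecan, from 124 and 115 CPM to 176 and 160 CPM. These were lost without KO1, and *Hspg2* also without KO2. *Sparc*, a collagen-binding protein and the most abundant of the list, was at 1563 and 1759 CPM in WT and 2101 and 1867 CPM in KO (log2 fold change 0.26 ± 0.14).

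A list of 20 angiogenic genes outside the rule had 16 tested, 5 called higher and 1 lower, with a median of 0.30. It was chosen by the study on these samples, so its direction is not independent evidence. *Cxcl12*, a chemokine that guides vessel growth and its most abundant gene, rose from 2039 and 1796 CPM to 3324 and 3672 CPM (log2 fold change 0.87 ± 0.15, edgeR adjusted p = 0.0116). *Ccn2*, *Pcdh17*, *Dysf* and *Robo4*, an endothelial guidance receptor, were the others that rose, and *Ankrd37*, a hypoxia-responsive gene, fell from 44.5 and 60.3 CPM to 22.6 and 19.9 CPM. Without KO2 *Cxcl12*, *Dysf* and *Robo4* were not called, and *Robo4* was also lost without KO1. Members carried these differences although none of them had a UMI of the 6 angiogenic genes of the rule. Cells of low expression can lack such UMIs at this depth, and the part of missed angiogenic cells was not tested.

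Immediate early genes are switched on within minutes of a stimulus, tissue dissociation included. Of 19 tested, 5 were called lower and 1 higher, with a median of -0.47. *Ier3* fell from 409 and 388 CPM to 211 and 229 CPM (log2 fold change -0.86 ± 0.12, edgeR adjusted p = 0.00415), and *Junb* from 1010 and 802 CPM to 502 and 592 CPM (log2 fold change -0.73 ± 0.16, edgeR adjusted p = 0.0459). *Atf3*, *Ier2* and *Zfp36* were the others that fell. *Jun*, the most abundant, was at 2093 and 2025 CPM in WT and 1464 and 1648 CPM in KO without being called, and *Fosb* was at 581, 310, 144 and 279 CPM in WT1, WT2, KO1 and KO2. *Jun* was called under 2 and *Fosb* under 5 of 16 alternatives, and DESeq2 called 9 genes of the list. *Cebpd* was the gene that rose, from 153 and 133 CPM to 194 and 265 CPM. Each of the 5 falls was lost without KO1, and those of *Junb*, *Ier2* and *Zfp36* also without KO2, while the rise of *Cebpd* was lost without WT2 and without KO2.

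Within mice this list varied widely from cell to cell. Its summed UMIs per 10000 UMIs of a cell had medians of 62.5 (WT1), 61.5 (WT2), 50.4 (KO1) and 56.6 (KO2). The quartiles lay at 29.7 and 154 in WT1, 32.3 and 140 in WT2, 30.7 and 99.7 in KO1, and 31.8 and 118 in KO2. Of the 5 genes that fell, *Zfp36*, a protein that destabilizes messenger RNA, is shown with its RefSeq promoter window (GRCm38.p6, chr7:28379179-28379478, minus strand), because its letters hold a CArG box, the sequence of the serum response element. The capitals mark it, with its first base 58 bases before the start site, and 1.32% of the 11591 windows hold one on either strand. Whether the windows of *Junb*, *Ier2*, *Ier3* and *Atf3* hold one was not looked up, so the box does not set *Zfp36* apart from them.
Zfp36: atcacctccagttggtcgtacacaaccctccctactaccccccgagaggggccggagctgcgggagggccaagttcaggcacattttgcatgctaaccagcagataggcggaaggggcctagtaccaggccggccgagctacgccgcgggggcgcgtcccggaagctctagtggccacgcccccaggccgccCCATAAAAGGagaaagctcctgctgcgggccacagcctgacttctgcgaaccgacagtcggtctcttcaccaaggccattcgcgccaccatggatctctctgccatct

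Heat shock genes had 2 of 12 called, both lower. *Hspa1a* was at 290 and 315 CPM in WT and 190 and 208 CPM in KO (log2 fold change -0.61 ± 0.12, edgeR adjusted p = 0.0269), and *Hspa1b* at 192 and 150 CPM in WT and 94.3 and 121 CPM in KO (-0.65 ± 0.14, edgeR adjusted p = 0.0498). They are near-identical copies, so their reads can be split between them. Both calls were lost without KO1 and in members of at least 5000 UMIs, and that of *Hspa1a* also without KO2. That of *Hspa1b* was also lost in the same members thinned to 2000 UMIs and without members with *Plvap* or haemoglobin. The most abundant gene of that list, the chaperone *Hsp90ab1*, was at 1360 and 1547 CPM in WT and 1331 and 1522 CPM in KO. Ribosomal protein genes had 0 calls among 16 by edgeR, 5 by DESeq2, 10 at an unadjusted p under 0.05 and 10 without WT1, and all 16 log2 fold changes were negative, with a median of -0.35, and their summed level was 18836, 21101, 15725 and 16138 CPM in WT1, WT2, KO1 and KO2. The median mitochondrial share of a member's UMIs was 3.94%, 3.83%, 2.72% and 3.17% in that order, so both KO mice lay below both WT mice here as well, and its part in the falls of stress and ribosomal genes was not tested.

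**Figure D4:**
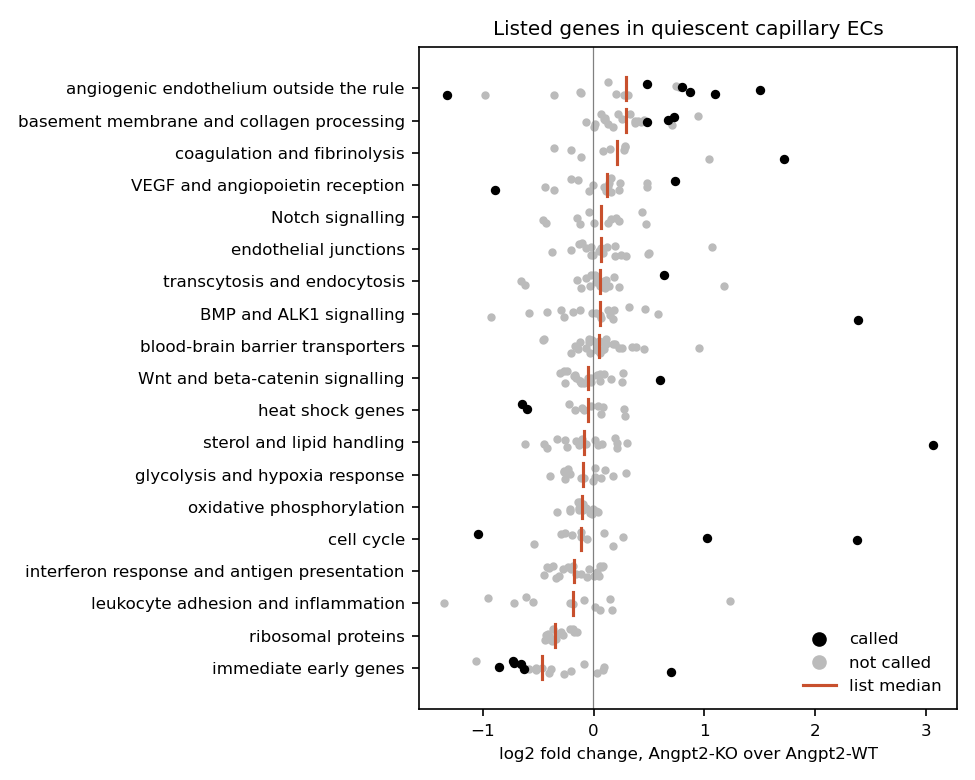
log2 fold change (KO over WT) of every tested gene in 19 lists, with called genes in black and the median of each list as a bar. The medians run from -0.47 for immediate early genes to 0.30 for angiogenic genes outside the rule, and blood-brain barrier carriers sit near the median of all genes at -0.01 (grey line) with none called.

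Among the remaining lists, no gene was called by edgeR or DESeq2 in interferon and antigen presentation (20 tested, median -0.17), leukocyte adhesion (13 tested, -0.19), glycolysis and hypoxia (16 tested, -0.10) and oxidative phosphorylation (16 tested, -0.11). In the same order 6, 5, 3 and 1 genes had an unadjusted p under 0.05, and without WT1 3, 2, 3 and 2 were called. The chemokine gene *Cxcl10* was called under 4 of 15 alternatives. *Vcam1*, an adhesion receptor for leukocytes, was at 112 and 88.1 CPM in WT and 43.0 and 74.7 CPM in KO (log2 fold change -0.72 ± 0.20, edgeR adjusted p = 0.136) and was called lower under 8 of 16 alternatives. With no low-count filter 5 genes of the leukocyte adhesion list were called, all lower. In sterol and lipid handling 1 of 18 was called, *Fabp4*, a fatty acid binding protein at a very low level that went from 0.231 and 0.624 CPM to 3.36 and 4.33 CPM. In BMP and ALK1 signalling 1 of 19 was called, the ligand gene *Bmp6*, from 0.692 and 1.71 CPM to 4.88 and 8.04 CPM. Neither was called without KO2. *Eng*, endoglin, the co-receptor of ALK1 and far more abundant, was at 525 and 513 CPM in WT and 780 and 778 CPM in KO (log2 fold change 0.59 ± 0.13, edgeR adjusted p = 0.0509). It was called higher by DESeq2 and under 9 of 16 alternatives in all. The 6 capillary markers outside the rule had 0 calls by edgeR, 1 by DESeq2 (*Rgcc*), 1 at an unadjusted p under 0.05 and a median of 0.03.

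Most of the named differences were also seen in other EC groups, whose values share the same mice and so are set side by side without a test of likeness. For *Ccnd1* the log2 fold change was 2.38 in members, 1.61 in arteriole-side capillary ECs, 2.69 in venous ECs, 1.03 in arterial ECs and 1.39 in ECs with an angiogenic gene. For *Meox1* the values were 1.98, 1.53, 2.55, 2.51 and 0.81 in the same order. For *Wnt5a* they were -1.33, -2.06, -1.02, -1.54 and -2.08. *Nrp1* had 0.73 in members and 0.00 in ECs with an angiogenic gene, where its level was 683 (WT1), 785 (WT2), 735 (KO1) and 734 (KO2) CPM without scaling. *Adm* had -0.89 in members and 1.88 in ECs with an angiogenic gene, a gap that was not tested.

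**Figure D5:**
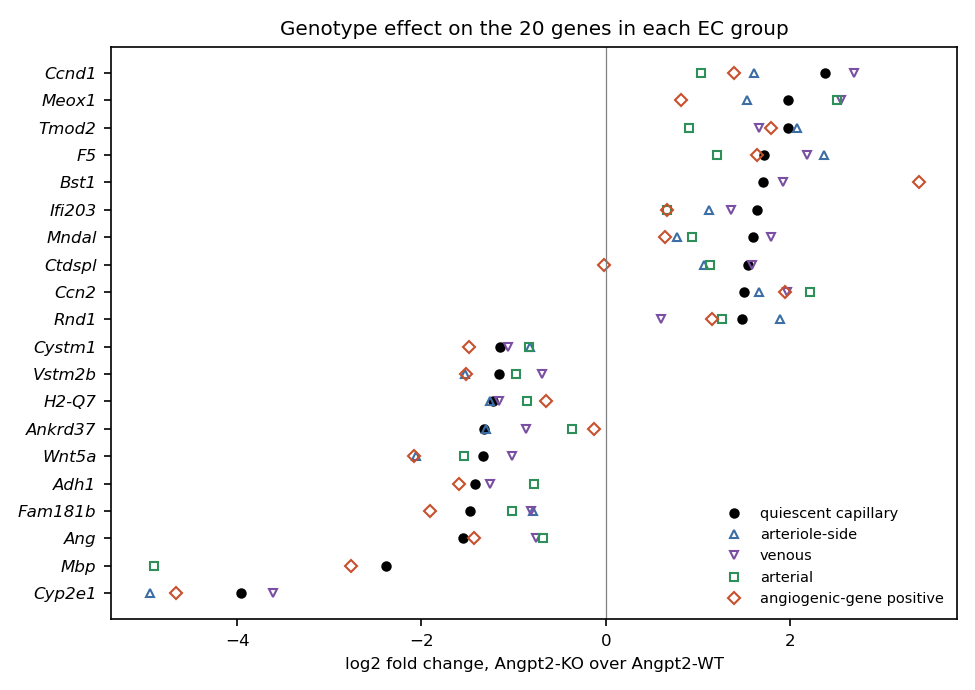
log2 fold change (KO over WT) of the 20 named genes in members (filled) and in 4 other EC groups (open), with a group left out where the gene was too low to be tested. *Ccnd1* ran from 1.03 in arterial to 2.69 in venous ECs, and the effects in members lay on the same side of 0 as in the other groups except for *Ctdspl*, which was at -0.02 in ECs with an angiogenic gene.

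Whether the genotype effect in members differed from that in a neighbouring zone was tested within mice, as the difference of 2 log2 fold changes. Against arteriole-side capillary ECs 16 of 10780 genes (0.148%) were called by edgeR, 13 higher (0.121%) and 3 lower (0.0278%), with 636 (5.9%) at an unadjusted p under 0.05. Against venous ECs 6 of 11646 (0.0515%) were called, 4 higher (0.0343%) and 2 lower (0.0172%), with 812 (6.97%) at an unadjusted p under 0.05. Arteriole-side ECs numbered 314 (WT1), 471 (WT2), 104 (KO1) and 254 (KO2), with medians of 6049.5, 4366, 6189 and 3996 UMIs. Venous ECs numbered 211, 387, 71 and 134, with medians of 17188, 14730, 20856 and 9457 UMIs, deeper than members in every mouse. The part of depth and cell number in these differences was not tested. DESeq2 called 1 gene in each comparison. *Rgcc*, a capillary marker, was at 218 and 266 CPM in WT members and 347 and 324 CPM in KO members, and at 337 and 394 CPM in WT and 316 and 263 CPM in KO arteriole-side ECs. Its difference of log2 fold changes was 0.82 ± 0.09 (edgeR adjusted p = 8.58e-05), and it was picked out after its values were seen. Against arteriole-side ECs *Vwf* had a difference of -0.71 ± 0.11 (edgeR adjusted p = 0.00421) and *Cebpd* one of -0.64 ± 0.12 (edgeR adjusted p = 0.0248). Neither was called by DESeq2, *Vwf* was lost without KO2, and *Cebpd* was lost without WT1 and after thinning. *Vwf* was at 226 and 217 CPM in WT and 168 and 176 CPM in KO members, and at 132 and 120 CPM in WT and 143 and 172 CPM in KO arteriole-side ECs.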

How the data were processed

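Single-cell RNA libraries of cerebral microvascular fragments from 4 mice were analysed from the deposited UMI counts per gene and barcode (32286 genes), which come from the authors' Cell Ranger run against GRCm38/mm10 and are not normalized. The submitters' processing notes give version 6.1.2. Cells with over 500 genes and under 10% mitochondrial UMIs were kept (17999 of 19809 barcodes, 31753395 to 42903731 UMIs per library). No doublet caller was run.

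UMIs of the members were summed per mouse and compared with edgeR 4.0.16 in R 4.3.3 (default low-count filter, TMM, quasi-likelihood test, Benjamini-Hochberg, threshold 0.05). The mouse is the replicate. Differences between zones used the mouse and a zone-by-genotype term. SEs were derived from the F statistic. DESeq2 1.42.0 was an alternative. Binomial intervals (95%) and floors (3 counts) cover counting error only. Tested on simulated counts, the genotype test recovered 30.0% of 1.5-fold, 67.3% of 2-fold and 98.0% of 4-fold changes, with 12 false calls among 11508 genes. The test against arteriole-side cells recovered 25.0% of 2-fold and 74.0% of 4-fold changes, with 6 false calls among 10336. Unlike the genotype simulation, that simulation gave every gene the same dispersion, and it held no mouse effect. Its figures therefore may not hold for genes that vary more between mice.

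Members, gene lists and tests were chosen with earlier results of these data known. Genes were named by rule: the 10 largest rises and 10 largest falls among called genes of at least 10 CPM whose genotypes did not overlap, per list the most abundant and most changed members, the 3 largest differences each way between zones, and *Nrp1*, *Tek* and *Foxo1*. Gene positions are of GENCODE M21, and promoter windows (250 bases before to 50 after a start) of RefSeq, which held 117 of the 159 called genes. Python 3.11.15 and matplotlib 3.10.9 were used. Stainings and human samples were not used here, and a few genes are not reported here.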

Additional observations from a re-analysis of the deposited data

Results flagged for a closer look

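The 10 differences given here between the genotype effect in members and in a neighbouring zone are the largest, up to 3 each way, among the genes of at least 10 CPM called by edgeR, out of 16 called against arteriole-side capillary ECs and 6 against venous ECs. Against arteriole-side capillary ECs the difference of log2 fold changes was 4.56 for *Plvap*, 2.39 for *Plpp3* and 2.15 for *Cd24a*, and -2.42 for *S100a6*, -0.71 for *Vwf* and -0.64 for *Cebpd*. *Plvap* was at 14.7 (WT1), 40.9 (WT2), 106 (KO1) and 29.5 (KO2) CPM in members and at 29.8, 53.3, 1.18 and 5.42 CPM in arteriole-side ECs. Members with 2 or more *Plvap* UMIs held 3436 CPM of *Plpp3* against 17.7 CPM in the other members. With such cells and those of over 1% haemoglobin left out of both zones, *Plpp3* and *Cd24a* were not called. None of the 4 largest of these differences was called by DESeq2 or after thinning to 2000 UMIs. *Cd24a* was also lost without KO1 (1.31) and *S100a6* without WT2 (-1.88). With 1 mouse left out, the difference for *Plvap* ran from 3.03 without KO1 to 7.04 without KO2. Its lowest value over all 8 alternatives was 1.52.

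Against venous ECs the difference was 6.04 for *Hbb-bt*, 3.29 for *Hbb-bs* and 3.21 for *Hba-a1*, all of red blood cells, and -4.23 for *Igkc*, an antibody light chain of plasma cells. *Hbb-bs* was at 1262, 4194, 8710 and 3659 CPM in members and 4514, 2152, 1808 and 322 CPM in venous ECs of WT1, WT2, KO1 and KO2. In venous ECs *Igkc* was at 72.9 CPM for KO1, while WT1, WT2 and KO2 had 0.765, 1.32 and 0 CPM. Without KO1 it turned to 3.52 and was not called. DESeq2 called *Hbb-bt* alone of these 4, which was lost after thinning. Without WT1 the difference was 1.88 for *Hbb-bs* and 1.83 for *Hba-a1*.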

How the results depend on the processing

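With 2 mice a genotype small changes were detected only in part, since 30.0% of simulated 1.5-fold changes were recovered. The 159 genotype calls became 447 with no low-count filter, 274 when cells were thinned to 2000 UMIs before the rule and 89 in members of at least 5000 UMIs, the last chosen after seeing the data. Leaving out 1 mouse gave 124 to 584 calls, with 584 without WT1. DESeq2 called 162, of which 116 were shared. Without members with *Plvap* or haemoglobin there were 156, a setting also added after seeing the data. Of the 20 genes with the largest changes 16 stayed called under each of the 16 alternatives that tested them, and of the 25 other called genes named 2 did. Of 41 named genes not called 14 were called under at least 1 alternative. This tally leaves out some uncalled genes given above, such as *Eng*, *Vcam1* and *Ttr*, called under 9, 8 and 9 of 16 alternatives. The cause of the lost calls was not tested.

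The same-numbered mice share a sex. The study speaks of 2 independent experiments without saying which mice each held, and the WT mice were littermates with no litter given per mouse. If the numbers mark the experiments, each holds 1 mouse a genotype and gives no test of its own. The deviations of the pairs had a Pearson correlation of 0.21 (0.05 without sex-linked genes) and a Spearman correlation of -0.04 across genes. A fit with the replicate number as a block made 193 calls (126 up, 67 down in KO) and kept 152 of the 159.

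The 16 differences from arteriole-side ECs became 1 with DESeq2, 61 with no filter, 2 after thinning and 8 without cells with *Plvap* or haemoglobin, and 30 (without KO1) to 79 (without KO2) with 1 mouse left out. The 6 differences from venous ECs became 1, 63, 7 and 12 in the same order, and 10 (without WT2) to 141 (without KO2). Without cells with *Plvap* or haemoglobin the differences turned to -0.23 for *Cd24a*, -0.56 for *Hbb-bt*, -0.78 for *Hbb-bs* and -0.82 for *Hba-a1*. *S100a6* turned to 1.89 after thinning, and *Igkc* ran from -5.18 without WT2 to 3.52 without KO1. The share of members was lower in KO under every alternative run, by 8.88 (without KO1) to 22.7 (without KO2) percentage points when 1 mouse was left out.

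Sign changes among named genes were otherwise all in genes not called either way. With 1 mouse left out, log2 fold changes ran from -0.116 to 0.0372 for *Foxo1*, -0.0546 to 0.000649 for *Ctnnb1*, -0.128 to 0.0662 for *Hsp90ab1*, -0.186 to 0.278 for *Ly6a*, -0.0736 to 0.218 for *Epas1* and -0.0869 to 0.125 for *Cox6c*. Thinning before the rule gave 0.0781 for *Lrp1*, 0.0932 for *Hsp90ab1*, 0.0872 for *Cdkn1a* and -0.00207 for *Ly6a*. The same members thinned gave 0.0494 for *Foxo1*, 0.0117 for *Ctnnb1* and -0.795 for *Col15a1*. *Hsp90ab1* was at 0.0169 in members of at least 5000 UMIs and *Cox6c* at -0.000576 with no filter.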

Other observations

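Summed levels of the other cell markers in members are given as values in the order WT1, WT2, KO1 and KO2. The 4 smooth muscle genes summed to 26.5, 7.71, 4.88 and 20.1 CPM, led by *Tagln*. The 5 astrocyte genes summed to 24.6, 17.0, 22.6 and 7.88 CPM, led by *Slc1a2*, and the 3 neuron genes to 6.23, 4.83, 2.44 and 3.71 CPM. The 3 B cell genes summed to 1.73, 4.05, 38.2 and 1.54 CPM, so KO1 stood above the other mice, and *Cd79a* led the list. The 2 platelet genes summed to 11.3, 12, 9.46 and 7.26 CPM, the 4 fibroblast genes to 0.923, 1.71, 0.305 and 1.39 CPM and the 3 T or NK cell genes to 0.231, 1.56, 0 and 0 CPM. No gene of these lists was called by edgeR, and without KO2 or with no low-count filter all 3 B cell genes were.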
